A study of Mus musculus with 9 samples.

Results

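The genes described here are 9 identity markers of type 2 conventional dendritic cells (cDC2), measured in sorted pre-cDCs, the committed precursors of conventional dendritic cells. They were taken by symbol from a table of 51912 genes in 9 samples, and all 9 were found. In the GRCm38 annotation all are protein-coding genes on separate chromosomes, apart from the neighbours Mgl2 (chr11:70130329-70137550, + strand) and Clec10a (chr11:70156197-70170834, +). The others are Sirpa (chr2:129592835-129632228, +), S100a4 (chr3:90603771-90606045, +), Dtx1 (chr5:120680202-120711927, -), Clec4a4 (chr6:122990367-123024105, +), Cd209a (chr8:3743397-3748984, -), Esam (chr9:37528078-37538319, +) and Ltb (chr17:35194439-35196320, +).

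The cells came from mixed bone marrow (BM) chimeras, in which lethally irradiated BL/6 CD45.1/2 mice received equal parts of 2 BM grafts. One graft was WT (BL/6 CD45.1). The other was of CD45.2 cells called DNGR-1 KO, which carry Cre in both copies of Clec9a (Clec9a Cre/Cre), the gene encoding the dead-cell receptor DNGR-1. WT and DNGR-1 KO cells of a recipient therefore shared one host and one environment, and every sample was pooled from 2 mice. From BM, 3 samples were WT and 3 were DNGR-1 KO. From spleen, 1 was WT and 2 were DNGR-1 KO. No drug or infection was part of any group. In the study's gating scheme, pre-cDCs were lineage-negative CD11c+ MHCII- CD135+ cells, with CD43 added to the gate in spleen, and SIRPα was not used to select them. The study counts 6 mice in total, so samples of different groups came in part from the same mice. The labels do not say that equally numbered samples share mice, and the main fits took all samples as independent. The p-values therefore measure only the spread between these samples.

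Type 2 conventional dendritic cells present antigen mainly to CD4+ T cells. Their development in spleen depends in part on Notch2 signalling and on lymphotoxin signals received through the lymphotoxin β receptor, and on transcription factors such as IRF4 and KLF4. Both signals act on the ESAM+ subset of splenic cDC2. Pre-cDCs leave the BM, reach the spleen through the blood and complete their differentiation there.

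Total counts lay between 17103806 and 23722298 per sample, so 3 counts, taken here as the floor of detection, corresponded to 0.127 to 0.179 CPM (counts relative to the library size, scaled by trimmed mean of M-values). Clec9a, the disrupted gene, was at 54.0 to 90.4 CPM in WT BM, at 0.0452 to 0.0501 CPM in DNGR-1 KO BM, at 146 CPM in WT spleen and at 0 in both DNGR-1 KO spleen samples, so the genotype labels held in every sample. The pre-cDC markers were present, with all 13 genes of the list above 3 counts in every sample. Markers of other cells moved with tissue. T and NK cell genes summed to 49.6 to 117 CPM in BM and to 2035 to 7319 CPM in spleen, although the lineage cocktail of that scheme contained CD3 and NK1.1. Neutrophil and granule genes summed to 1167 to 3225 CPM in BM, highest in both samples numbered 1, and to 0.333 to 4.92 CPM in spleen.

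Clec10a, Mgl2 and Clec4a4 are C-type lectin genes with close relatives, and short reads may not separate them. Clec10a and Mgl2, which encode the galactose-type lectins MGL1 and MGL2, are neighbours on chromosome 11 (GRCm38). Their coding sequences were 88.7% identical over 914 aligned bases. The following coding stretches of 263 bases (spliced, + strand, chr11:70169782-70170229 and chr11:70136297-70136739) are shown because they include the longest run common to both, 183 bases. Capitals mark the 6 bases that differ.
Clec10a: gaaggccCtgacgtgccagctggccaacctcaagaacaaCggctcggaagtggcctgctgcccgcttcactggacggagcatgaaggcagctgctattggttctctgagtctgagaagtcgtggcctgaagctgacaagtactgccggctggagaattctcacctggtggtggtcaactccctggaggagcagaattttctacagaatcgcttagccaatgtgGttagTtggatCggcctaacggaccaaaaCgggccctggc
Mgl2: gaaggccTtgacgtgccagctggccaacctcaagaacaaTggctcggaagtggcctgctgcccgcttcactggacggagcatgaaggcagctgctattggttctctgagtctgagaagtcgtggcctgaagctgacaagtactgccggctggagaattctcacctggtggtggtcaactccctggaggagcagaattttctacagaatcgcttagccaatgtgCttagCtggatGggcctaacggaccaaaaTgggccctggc
Clec4a4, which encodes the inhibitory receptor DCIR2 recognised by the 33D1 antibody, has the same relation to Clec4a2 on chromosome 6. The coding sequences were 85.7% identical over 708 aligned bases. Stretches of 243 bases (spliced, + strand, chr6:122990401-123004086 and chr6:123123622-123128029) hold an identical run of 163 bases, and capitals mark the 8 differing bases.
Clec4a4: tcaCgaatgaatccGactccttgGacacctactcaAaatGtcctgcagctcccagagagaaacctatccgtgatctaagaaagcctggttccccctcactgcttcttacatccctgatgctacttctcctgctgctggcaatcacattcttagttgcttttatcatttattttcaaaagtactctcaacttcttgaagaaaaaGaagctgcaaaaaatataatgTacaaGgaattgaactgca
Clec4a2: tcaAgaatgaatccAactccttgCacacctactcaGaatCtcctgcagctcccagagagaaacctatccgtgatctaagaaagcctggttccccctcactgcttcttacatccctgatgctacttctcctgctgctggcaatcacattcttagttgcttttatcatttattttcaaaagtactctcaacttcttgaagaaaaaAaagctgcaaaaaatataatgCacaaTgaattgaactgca
Of all windows of 50 bases in the transcripts of a gene, 15.7% in Clec4a4, 13.1% in Mgl2 and 9.02% in Clec10a also occurred in another gene. For S100a4 the share was 47.4%, all with the overlapping gene Gm42674, which itself had at most 0.111 CPM in any sample. Cd209a, Sirpa, Esam and Ltb shared no such window. Estimated counts that were not whole, the mark of reads divided between genes, stood in 7 samples for Mgl2, in 7 for Clec10a, in 3 for Clec4a4 and in 3 for S100a4.

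The members spanned the whole range from abundant to undetected. Per kb of exon, S100a4 was the highest member in BM, with a median of 984 CPM per kb over 6 samples and a range of 793 to 1967. Cd209a followed at 213 CPM per kb (166 to 337), without overlap. Sirpa, with a median of 17.1 CPM per kb (8.78 to 22.3), and Clec10a, with 16.6 CPM per kb (8.83 to 27.1), did not differ beyond their spread. Ltb (median 0.974), Mgl2 (0.511) and Esam (0.379) formed a low group of overlapping ranges, and Clec4a4 and Dtx1 had medians of 0. S100a4 and Cd209a led also in spleen, at medians of 1525 and 317 CPM per kb over 3 samples. There Ltb moved up to the third place, at 75.3 CPM per kb (46.9 to 190), overlapping neither Cd209a above it nor Clec10a below it (median 15.8, range 3.04 to 20.4). Below Clec10a, Sirpa (median 11.9), Clec4a4 (8.54), Dtx1 (4.81) and Esam (2.85) followed, each overlapping the next, and Mgl2 was last.

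**Figure D1:**
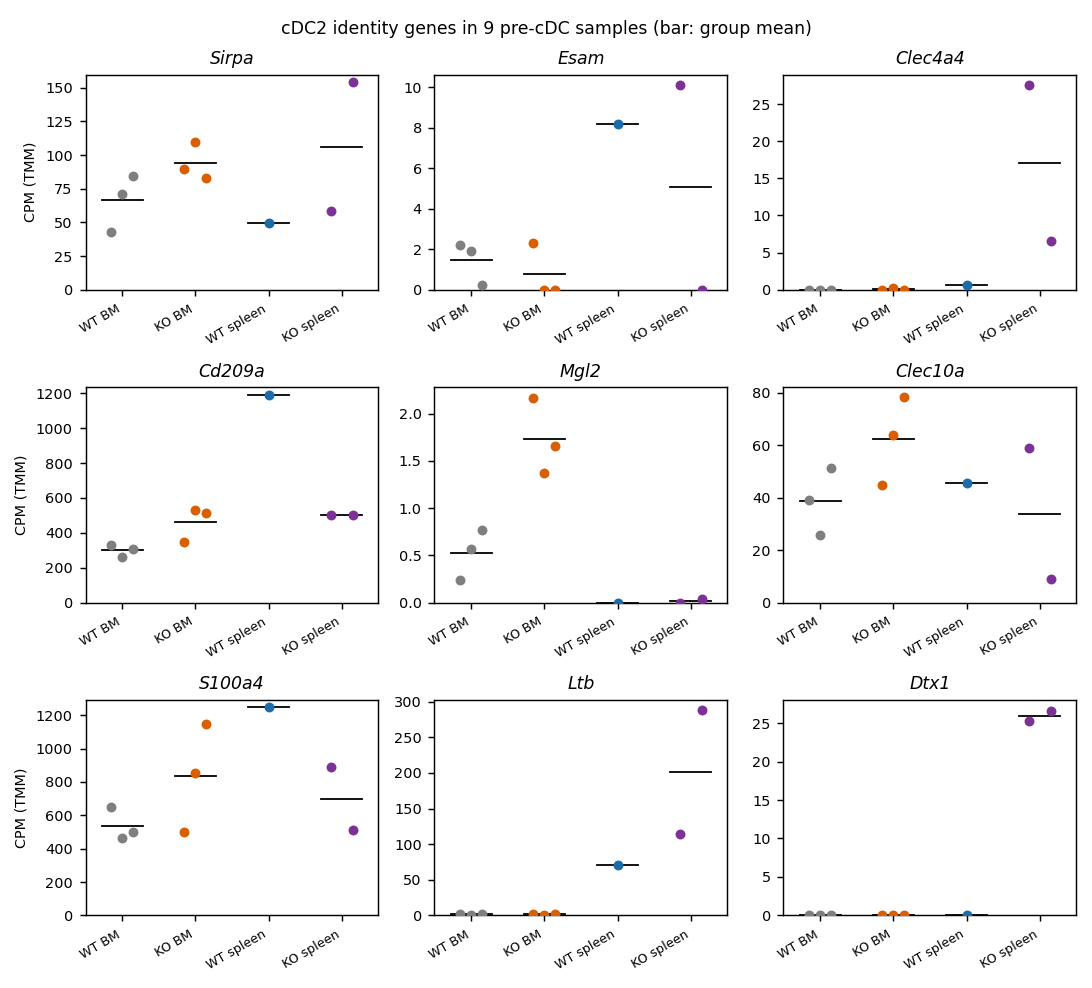
CPM of each of the 9 cDC2 identity genes (vertical axis, linear, from 0) in WT and DNGR-1 KO pre-cDCs of BM and spleen. Each point is a sample and each bar the mean of its group (in WT spleen, the only sample). Ltb lies at 2.55 CPM or less in BM and at 71.0 CPM or more in spleen, whereas Dtx1 is at 25.3 and 26.6 CPM in the DNGR-1 KO spleen samples and at or near 0 in the other 7 samples.

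The first comparison set DNGR-1 KO beside WT precursors of BM that shared a host. All WT samples were CD45.1 and all DNGR-1 KO samples CD45.2, so genotype and congenic background cannot be told apart in either tissue. The study scored genes of that background and regressed out their effect, and the fits here held no such term. No member passed the test (0 of 7 tested). The quasi-likelihood test of edgeR called 4 of 13016 genes, 0.0307% of those tested, at an adjusted p under 0.05. DESeq2, limma-voom and limma on the variance-stabilised values also called 0 members. At an unadjusted p under 0.05 there were 2 of the 7 members, Cd209a and Mgl2, beside 498 (3.83%) of all genes tested. Clec4a4 and Dtx1 were too low to be tested.

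Cd209a, which encodes a mouse homolog of the lectin receptor DC-SIGN, was at 329, 262 and 308 CPM in WT BM and at 345, 533 and 516 CPM in DNGR-1 KO BM. Every DNGR-1 KO sample lay above every WT sample. The log2 fold change was 0.62 ± 0.24 (SE), with an adjusted p of 0.86 by edgeR. Mgl2 was far lower, at 0.239, 0.570 and 0.767 CPM in WT and at 2.17, 1.37 and 1.65 CPM in DNGR-1 KO, and again the groups did not overlap. Its log2 fold change was 1.70 ± 0.74 (SE) with an adjusted p of 0.86 (edgeR), and it rested on 4 to 15 estimated counts per WT sample and 28 to 48 per DNGR-1 KO sample. Of the 7 members tested, 2 were thus separated upward, whereas 4.96% of all genes tested were.

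For the other members the genotypes overlapped. Sirpa, the inhibitory receptor that binds CD47, was at 43.1, 71.1 and 84.6 CPM in WT BM and at 89.6, 110 and 83.3 CPM in DNGR-1 KO BM. Clec10a was at 39.1, 25.6 and 51.3 CPM in WT and at 44.9, 63.9 and 78.6 CPM in DNGR-1 KO. S100a4, a calcium-binding protein of motile cells, was at 649, 463 and 500 CPM in WT and at 498, 854 and 1149 CPM in DNGR-1 KO. In each of the 3 genes the lowest DNGR-1 KO sample lay within the WT range, and the log2 fold changes were 0.50 ± 0.28, 0.69 ± 0.32 and 0.63 ± 0.31 (SE), with an adjusted p of 0.86 each (edgeR). Single samples moved these values, Sirpa to 0.27 without WT sample 1, Clec10a to 0.46 without WT sample 2 and S100a4 to 0.32 without DNGR-1 KO sample 3. Ltb, which encodes the membrane anchor of lymphotoxin α1β2, was at 0.881 to 2.55 CPM over the 6 BM samples, with a log2 fold change of 0.08 ± 0.67 (SE). Esam, an endothelial adhesion molecule that also marks a Notch2-dependent cDC2 subset, was at 2.21, 1.92 and 0.256 CPM in WT BM, at 2.31 CPM in 1 DNGR-1 KO sample and at 0 in the other two. This single-sample pattern gave a log2 fold change of -0.93 ± 1.53 (SE). The value was -0.35 without either DNGR-1 KO sample at 0. It was -7.82 (adjusted p = 0.27, edgeR) without the DNGR-1 KO sample that had counts. The median log2 fold change of the 7 members tested was 0.62, beside -0.0045 over all genes tested, and of these members 6 had a positive and 1 a negative value. Among the marker lists, medians were 0.58 over 10 monocyte and macrophage markers tested and 0.50 over 4 B cell markers. They were 0.33 over 10 cDC1, 0.22 over 13 pre-cDC and 0.15 over 9 pDC markers. For 5 T and NK markers the median was 0.06, and for 9 neutrophil and granule markers -0.07. In each of these lists 0 genes were called, and the part of other cells in the members' values was not tested. Without both BM samples numbered 1, which had the most neutrophil granule counts, 0 members were called as well.

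**Figure D2:**
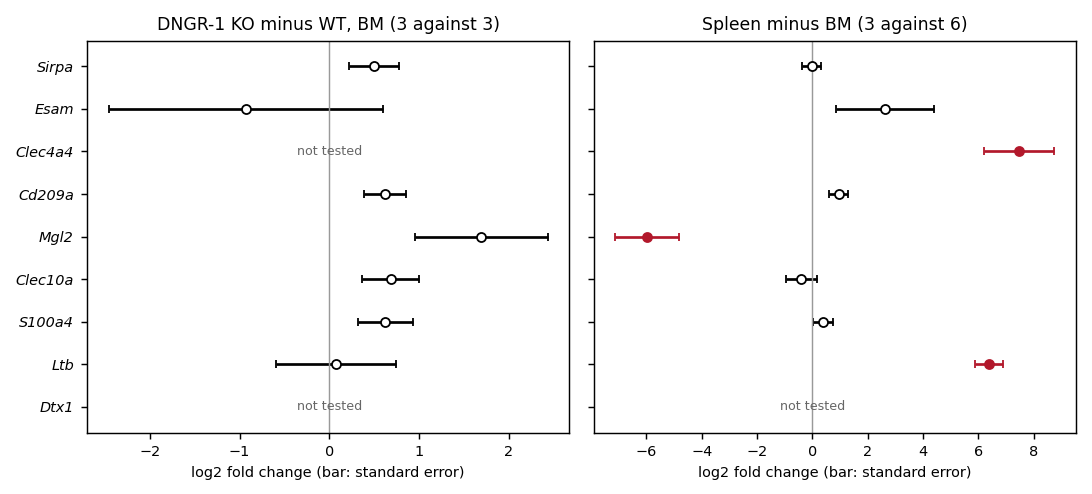
Log2 fold changes of the members from edgeR (horizontal axis), DNGR-1 KO minus WT in BM on the left and spleen minus BM on the right. Points are estimates and bars standard errors, filled red where the adjusted p was under 0.05. Only Ltb, Clec4a4 and Mgl2 are filled, all in the comparison of tissues.

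The second comparison asked how the members differed between spleen and BM pre-cDCs, with genotype as a term in the fit. Ltb and Clec4a4 rose and Mgl2 fell, 3 of the 8 members tested. Clec4a4 had at most 5 counts in any BM sample and Mgl2 at most 1 in any spleen sample. These 2 genes thus entered the test through the tissue where they were high, and the filter largely set their direction. Among all 13468 genes tested, 19.5% were called, 7.28% higher and 12.3% lower in spleen. The median log2 fold change was 0.67 over the members tested and -0.18 over all genes tested. Tissue was also the comparison in which the markers of T and NK cells and of neutrophils moved, and the spleen gate contained an additional marker. In bulk samples, fewer cells of a type and less RNA per cell cannot be told apart.

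Ltb was at 1.55, 0.881, 2.40, 1.40, 1.18 and 2.55 CPM in BM. In spleen it was at 71.0 CPM in WT and at 114 and 288 CPM in DNGR-1 KO. The lowest spleen sample was 27.8 times the highest BM sample, and the log2 fold change was 6.40 ± 0.51 (SE, adjusted p = 9.4e-05, edgeR). Ltb is made by lymphocytes too, and the T cell genes of the spleen samples varied with it. The sum of Cd3d, Cd3e and Cd3g, the invariant chains of the T cell receptor, was 282, 369 and 1263 CPM in these 3 samples, and Ltb was 0.252, 0.309 and 0.228 of it. In BM that sum was 1.27 CPM or less. Of the T and NK list, 17 of 19 genes were above 3 counts in every spleen sample, and 4 in every BM sample. The 17 tested were all higher in spleen, but genes near 0 in BM entered the test through their spleen counts. The direction of such genes was thus largely set by the filter. The part of T cell RNA in the Ltb difference was not tested.

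**Figure D3:**
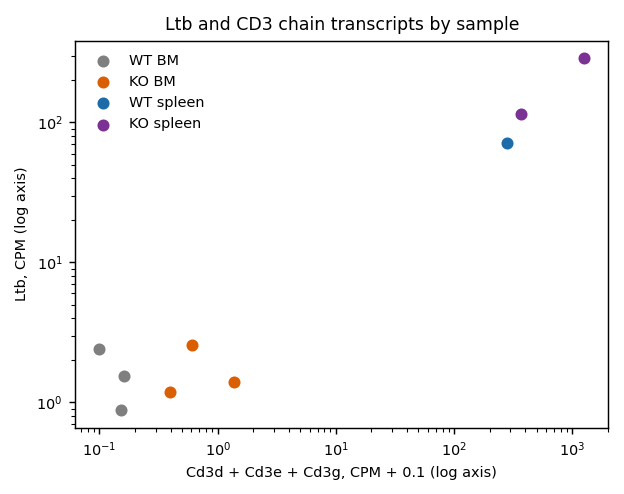
Ltb (vertical, CPM, log axis) against the sum of Cd3d, Cd3e and Cd3g (horizontal, CPM plus 0.1 so that 0 can be drawn, log axis), 1 point per sample. The 3 spleen samples stand apart from the 6 BM samples on both axes, and among them Ltb is highest where the CD3 chains are highest.

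Clec4a4 was at 0 in 5 BM samples and at 0.245 CPM (5 counts) in the other. In spleen it was at 0.652 CPM in WT (11 counts, 95% exact binomial interval 0.326 to 1.17 CPM, which covers counting error only) and at 27.6 and 6.63 CPM in DNGR-1 KO. All spleen samples lay above all BM samples, but the DNGR-1 KO samples differed from each other by 4.17 times. The log2 fold change was 7.47 ± 1.28 (SE, adjusted p = 0.0041, edgeR), a value that rests on the few counts in BM and is no bound. Among the DNGR-1 KO samples alone the adjusted p was 0.050, just above the threshold.

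Mgl2 had the opposite direction. It had 0, 0 and 1 counts in the spleen samples, all under the floor, against a mean of 1.13 ± 0.73 CPM (SD, n = 6) in BM. That BM mean was 6.35 times the highest spleen floor, 0.178 CPM. The WT BM samples lay closer to this floor, at 0.239 to 0.767 CPM, than the DNGR-1 KO BM samples, at 1.37 to 2.17 CPM. The adjusted p of Mgl2 was 0.0072 by edgeR, and 0.052 among the DNGR-1 KO samples alone. Its neighbour Clec10a did not share this difference. Clec10a was at 45.7 CPM in WT spleen and at 59.1 and 8.82 CPM in DNGR-1 KO spleen, against 25.6 to 78.6 CPM in BM, and its log2 fold change was -0.40 ± 0.55 (SE, adjusted p = 0.68, edgeR), or 0.10 without the lower of the DNGR-1 KO samples. The 2 DNGR-1 KO spleen samples thus lay 6.70 times apart, 1 of them under the whole BM range. In BM, Clec10a exceeded Mgl2 by 20.7 to 164 times.

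The remaining members did not pass the test. Cd209a was at 1188 CPM in WT spleen and at 502 and 499 CPM in DNGR-1 KO spleen, against 262 to 533 CPM in BM. Only the WT sample was outside the BM range. The log2 fold change of 0.95 ± 0.34 (SE, adjusted p = 0.084, edgeR) was 0.12 without that sample, and DESeq2 called the gene at an adjusted p of 0.031. S100a4 was at 1250, 890 and 510 CPM in the spleen samples, and its log2 fold change of 0.39 ± 0.36 (SE) became -0.24 without the WT sample. Sirpa was at 49.7, 58.4 and 154 CPM in spleen, on both sides of the BM mean of 80.2 ± 22.1 CPM (SD, n = 6), with a log2 fold change of -0.03 ± 0.34 (SE), or -0.54 without the highest spleen sample. Esam was at 8.18 CPM in WT spleen and at 10.1 CPM in 1 DNGR-1 KO sample, above all 6 BM samples. In the other DNGR-1 KO sample it was at 0, with a 95% exact binomial interval of up to 0.156 CPM. Its log2 fold change was 2.64 ± 1.77 (SE, adjusted p = 0.35, edgeR), falling to 0.96 without the DNGR-1 KO spleen sample that had counts.

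Dtx1, which encodes the Notch-induced E3 ligase Deltex1, was not tested because too few samples had counts. It had 0 counts in 5 BM samples and in WT spleen and 1 count in the sixth BM sample. The DNGR-1 KO spleen samples were at 25.3 and 26.6 CPM (456 and 631 counts), at least 141-fold higher than BM. Without the filter on low counts its adjusted p for tissue was 0.0017 (edgeR), whereas limma on the variance-stabilised values did not call it (adjusted p = 0.071). Both values rest on the DNGR-1 KO spleen samples, and the WT spleen sample, at 0, did not differ from BM. Other genes had the same pattern in spleen, 0 in WT and present in both DNGR-1 KO samples. Dtx4, a Deltex relative and 1 of 22 Notch genes, was at 19.6 and 5.19 CPM there, but also at 5.49 to 15.9 CPM in BM. Cd4, 1 of 19 further cDC2 genes, was at 1.11 and 0.971 CPM. Among single markers of other cells, the B cell gene Ms4a1 was at 11.8 and 9.37 CPM in DNGR-1 KO spleen and the NK cell gene Ncr1 at 15.6 and 10.7 CPM. They were 1 of 12 B cell and 1 of 19 T and NK genes, and 2 of 17 monocyte and macrophage genes behaved likewise. The B cell gene Pax5 had 0 counts in every spleen sample. The B cell list summed to 718 to 1005 CPM in spleen, of which Ighm alone made 670 to 958 CPM, and to 899 to 1424 CPM in BM. The part of such cells in the Dtx1 values was not tested.

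Genotype in spleen rested on a single WT sample. An edgeR fit of all 9 samples by group, made after the values were seen, took that sample to vary like the other groups. It called Dtx1 (adjusted p = 0.017) and Cd209a (log2 fold change -1.25 ± 0.32, SE, adjusted p = 0.042), 2 of 9 members, beside 8.58% of 15813 genes tested. The adjusted p of Cd209a lay between 0.030 and 0.078 under 9 alternatives, of which 3 called it. The call was lost when sample 2 or 3 of either genotype in BM, or either DNGR-1 KO spleen sample, was left out, while the log2 fold change stayed between -1.25 and -1.22. All 9 alternatives kept the same WT spleen sample, so none of them tests that limit. Dtx1, with at most 1 count in every other sample, entered the fit only through the DNGR-1 KO spleen samples. Its log2 fold change lay between 9.78 and 12.0 under the alternatives. No other member passed, Clec4a4 having an adjusted p of 0.29 and Ltb of 0.28 (edgeR). The genotype difference in spleen minus that in BM was called for 1 of 9 members, Cd209a, and for 7.01% of all genes tested, whereas limma-voom called 0 genes. Of 12008 genes with a mean of at least 1 CPM in spleen, 17.8% were over 2 times the WT level in both DNGR-1 KO samples and 8.56% were under it by the same factor, a rule chosen after the values were seen. Among 8 such members, Clec4a4 and Dtx1 were on the higher side. Clec4a4 was 42.3 and 10.2 times the WT value, and Dtx1 was at least 142-fold higher than in WT. Cd209a was on the lower side, at 0.422 and 0.420 of the WT value. Ltb was 1.61 and 4.05 times the WT value. The DNGR-1 KO samples fell on opposite sides of WT for Clec10a (1.29 and 0.193) and for Esam (1.24 and 0). Sirpa was at 1.18 and 3.10 of WT and S100a4 at 0.712 and 0.408.

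Lists of genes related to the members were counted in the same way. Of the SIRP family list, 4 of 6 genes rose in spleen and 0 fell, with a median log2 fold change of 2.90. Sirpb1a, an activating relative of Sirpa, was at 0 to 0.952 CPM in BM and at 34.3, 43.8 and 4.64 CPM in spleen (log2 fold change 5.75 ± 1.03, adjusted p = 0.0051, edgeR), and its relative Sirpb1b had a log2 fold change of 5.25 ± 1.10 (SE, adjusted p = 0.010, edgeR). Cd47, the ligand of SIRPα, rose by a log2 fold change of 0.56 ± 0.17 (SE, adjusted p = 0.043, edgeR). Of 12 DC-SIGN and DCIR paralogs, 8 were tested, 4 rose and 0 fell. Clec4n, which encodes the activating receptor Dectin-2, had the lowest adjusted p of the list (log2 fold change 9.38 ± 1.02, adjusted p = 0.00048, edgeR). It had 0.136 CPM or less in BM and 6.58, 28.4 and 33.2 CPM in spleen, with the WT sample lowest. Cd209d, a relative of Cd209a, was at 16.4 to 32.7 CPM in BM and at 215, 57.8 and 63.7 CPM in spleen (log2 fold change 2.30 ± 0.40, adjusted p = 0.0046, edgeR), with the WT sample highest. Cd209e, at 162 CPM in WT spleen and 24.9 and 13.3 CPM in DNGR-1 KO spleen, did not pass the test (adjusted p = 0.052, edgeR). Cd209b and Cd209f had no count in any sample. Clec4a3 and Clec4a1 had log2 fold changes of 4.36 ± 0.58 and 3.31 ± 0.60 (SE), with an adjusted p of 0.0014 and 0.0052 (edgeR), and both were highest in WT spleen. Clec4a2, the gene that shares sequence with Clec4a4, was at 4.12 to 11.4 CPM in BM and at 27.5, 34.9 and 8.99 CPM in spleen (adjusted p = 0.053, edgeR).

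**Figure D4:**
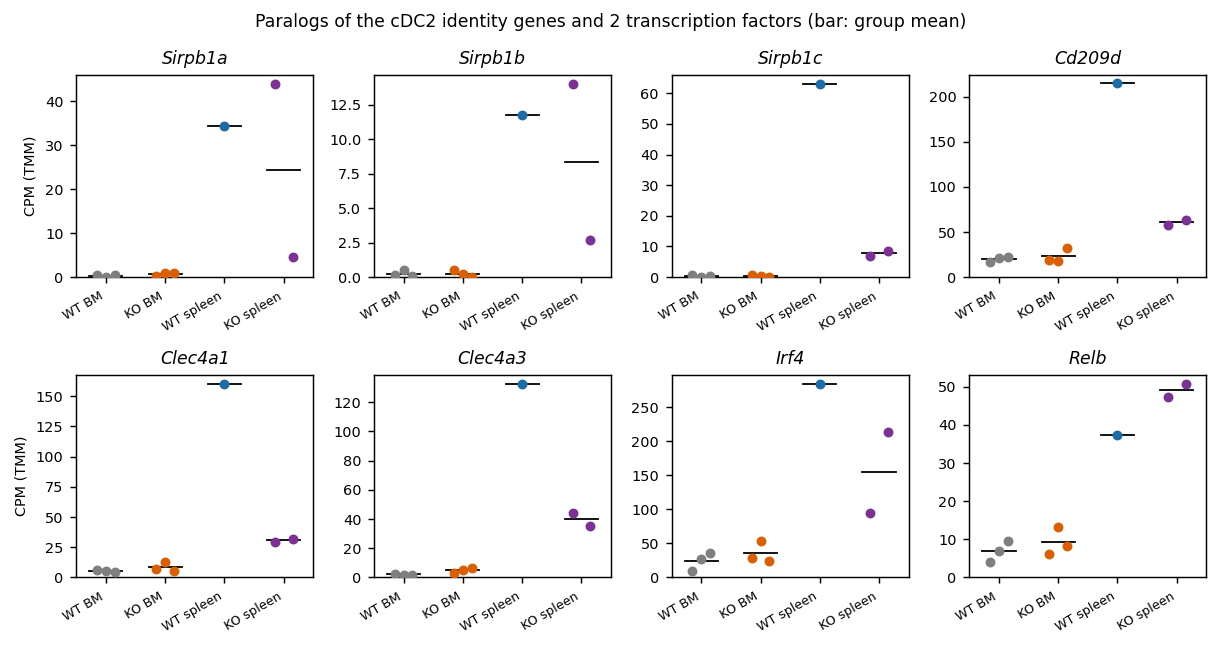
CPM (vertical axes, linear, from 0) of 6 relatives of the members and of Irf4 and Relb in each sample, with bars at group means. All 3 spleen samples lie above all 6 BM samples in each panel, and the WT spleen sample is the highest in 5 of them.

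In the Notch list, 14 of 22 genes were tested, 0 rose and 1 fell, and the median log2 fold change was -0.02. The gene that fell was Dtx2, a Deltex relative of Dtx1 (log2 fold change -1.28 ± 0.28, adjusted p = 0.011, edgeR). Notch2, the receptor needed by splenic ESAM+ cDC2, was at 238 to 403 CPM in BM and at 289 to 311 CPM in spleen, and Rbpj, the DNA-binding partner of Notch, at 41.5 to 174 and 104 to 138 CPM. Notch1 was at 0.119 CPM in WT spleen, 0.0556 CPM in 1 DNGR-1 KO spleen sample and 32.8 CPM in the other. Hes1, a classical Notch target, was at 3.46 CPM in that last sample and at 0.356 CPM or less in every other. The levels of Dtx1 and of Notch2 (311 and 289 CPM) were alike in both DNGR-1 KO spleen samples. Those of Notch1, Hes1 and Dtx4 (19.6 and 5.19 CPM, 0 in WT spleen) were not. The part of Notch signalling in the Dtx1 values was not tested.

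In the lymphotoxin list, 12 of 13 genes were tested, 3 rose and 1 fell, with a median log2 fold change of 1.01. The genes that rose were Relb and Nfkb2, the transcription factor subunits of the non-canonical NF-κB pathway, and Tnfsf14, which encodes the ligand LIGHT. Relb had a log2 fold change of 2.44 ± 0.38 (SE, adjusted p = 0.0026, edgeR) and Tnfsf14 of 2.25 ± 0.51 (SE, adjusted p = 0.014, edgeR). Tnfrsf14, the receptor of LIGHT, fell by 3.93 on the log2 scale (adjusted p = 0.016, edgeR). Ltbr, the receptor of the Ltb product, was at 24.6 to 43.2 CPM in BM and at 13.7, 25.1 and 7.56 CPM in spleen (adjusted p = 0.13, edgeR), and Lta, the partner chain, had at most 0.591 CPM in any sample. Of 9 cDC2 transcription factors tested, 5 rose and 0 fell, among them Irf4, at 9.25 to 52.9 CPM in BM and at 284, 95.1 and 213 CPM in spleen (log2 fold change 2.74 ± 0.48, adjusted p = 0.0045, edgeR). The other 3 that rose besides Relb were Irf2 (log2 fold change 1.37 ± 0.27, adjusted p = 0.0077, edgeR), Id3 and Tbx21. Id3 and Tbx21 are expressed in T or NK cells as well and were highest in the DNGR-1 KO spleen sample with the highest CD3 chains, at 82.9 and 38.1 CPM. Klf4 and Zeb2 did not pass the test, with log2 fold changes of -0.15 ± 0.27 and 0.20 ± 0.27 (SE). Of 18 other cDC2 genes tested, 4 rose and 0 fell. Cd2, another gene of T cells, led them, at 0 to 0.933 CPM in BM and at 78.3, 158 and 433 CPM in spleen. In the S100 cluster, 1 rose (S100a11) and 2 fell of 7 tested, and the 2 that fell were the neutrophil genes S100a8 and S100a9. S100a6, the neighbour of S100a4, was at 241 to 491 CPM in BM and at 620, 471 and 365 CPM in spleen (adjusted p = 0.17, edgeR). In BM, 0 genes of any of these lists were called between genotypes.

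The other marker lists gave, for tissue, 4 higher and 1 lower of 11 cDC1 markers tested (Cd8a, which T cells also express, had the lowest adjusted p), 0 higher and 1 lower of 13 pre-cDC markers (Irf8, which fell by 1.35 on the log2 scale), 4 higher and 1 lower of 13 monocyte and macrophage markers, 1 higher and 2 lower of 9 pDC markers and 0 of 4 B cell markers. All 9 neutrophil and granule genes tested fell. Of that list 0 genes were above 3 counts in every spleen sample, so they entered the test through their BM counts, which largely set the direction.

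Patterns most like those of the members were sought among 13468 genes over the 9 samples, by the distance between mean-centred log2 CPM profiles. The nearest genes were C330007P06Rik and Foxj3 to Sirpa (distances 0.440 and 0.474), Ypel5 and Lyz2 to Cd209a (0.492 and 0.548), and Ctsh and Alox5ap to S100a4 (0.471 and 0.582). Ctsw, a protease of cytotoxic lymphocytes, and Trbv17, a T cell receptor segment, were nearest to Ltb (1.04 and 1.22). Med12l and Stox1 were nearest to Mgl2 (0.910 and 1.14), and Tbxas1 and Mfsd13a to Clec10a (1.01 and 1.09). For Clec4a4 (Meis3 and Trav6-3, 2.82 and 2.83) and Esam (Zfyve28 and AV356131, 3.85 and 3.89) the distances were larger.

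RefSeq start-site windows (GRCm38.p6, 250 bases before to 50 after the start) were found for 5 of the 9 members. The parts of the windows that lie before the GENCODE start of the gene, 222 and 182 bases, are shown for Mgl2 and Ltb, called members with opposite directions, with capitals for GGAAGT, the core bound by ETS factors such as PU.1. The Mgl2 stretch is chr11:70130107-70130328 and the Ltb stretch chr17:35194257-35194438, both on the + strand.
Mgl2 upstream: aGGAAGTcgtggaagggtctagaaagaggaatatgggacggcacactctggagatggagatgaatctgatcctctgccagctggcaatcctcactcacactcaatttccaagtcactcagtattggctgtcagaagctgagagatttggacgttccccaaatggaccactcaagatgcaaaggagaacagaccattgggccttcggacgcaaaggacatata
Ltb upstream: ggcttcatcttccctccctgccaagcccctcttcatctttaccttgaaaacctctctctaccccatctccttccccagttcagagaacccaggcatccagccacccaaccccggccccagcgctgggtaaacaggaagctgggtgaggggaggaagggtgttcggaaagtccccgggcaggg
Both strands were searched for 3 motifs, which can overlap. GGAAGT was in 23.8% of 32851 windows, TGGGAA, the core bound by RBPJ, in 25.6% and GGGANTTCC, a κB form, in 1.68%. GGAAGT was found once each in the windows of Mgl2, Cd209a and S100a4, and TGGGAA once in that of S100a4. The windows of Ltb and Dtx1 held none of the 3.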

How the data were processed

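Pre-cDC RNA was depleted of ribosomal RNA and sequenced on a DNBSEQ instrument. The authors deposited estimated counts per gene, of which 25.6% of values above 0 were not whole, and log2 values from a variance-stabilising transformation. The submitters' processing notes list Trimmomatic 0.36, STAR 2.5.2, RSEM 1.3.0, DESeq2 1.18.1, R 3.4.3 and build GRCm38, without roles. Symbols and exon lengths came from GENCODE annotation. The counts were rounded and tested with the quasi-likelihood test of edgeR 4.0.16 (R 4.3.3) after TMM scaling and filterByExpr. P-values were adjusted by Benjamini-Hochberg over all genes tested, with a threshold of 0.05. The genotype fit held the 6 BM samples, and the tissue fit all 9 with genotype as a term. No test of genotype in spleen was planned, and the fit by group over all 9 samples, which also gave the difference between tissues, was added after seeing the data. CPM used TMM scaling, and profiles log2 CPM a prior count of 2. The alternatives were DESeq2 1.42.0, limma 3.58.1 (voom, and log2 values), other scaling and filters, a replicate block and leaving out samples. Total counts of 17103806 to 23722298 set the floor, and intervals cover counting error only. For WT, the label fields disagree (CD45.1 or CD45.2), and CD45.1 was taken, as in the study.

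The members and gene lists were chosen with earlier results of these data known. Named were all 9 members, up to 4 examples of each list by lowest adjusted p in each direction, and relatives, ligands and receptors of members. Other genes that a list called, when it called 5 or fewer, and the genes set beside Dtx1 were named after their values were seen. Gene lists are described by counts and medians, without set tests.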

Additional observations from a re-analysis of the deposited data

Results flagged for a closer look

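Cd209a differed in the direction of the genotype difference between tissues. In BM all 3 DNGR-1 KO samples lay above all 3 WT samples, whereas in spleen both DNGR-1 KO samples, at 502 and 499 CPM, lay below the WT sample, at 1188 CPM. In a fit of all 9 samples by group, made after the values were seen, the log2 fold change in spleen minus that in BM was -1.88 ± 0.38 (SE, adjusted p = 0.019, edgeR), and 7.01% of 15813 genes passed that test. The adjusted p lay between 0.014 and 0.067 under 9 alternatives, the call was lost when sample 2 of either genotype in BM, or sample 3 of the DNGR-1 KO there, was left out, and limma-voom called 0 genes (2968 at an unadjusted p under 0.05). The result rests on 1 WT spleen sample, and the genotype difference in BM did not pass the adjusted threshold. That spleen sample was the highest of all 9 also for the relatives Cd209c, Cd209d, Cd209e, Clec4a1 and Clec4a3, and for Lyz2. It was not the highest for Clec4a2, Clec4b1, Clec4b2 and Clec4n.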

How the results depend on the processing

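No member was called between genotypes in BM under any of 15 alternatives. The number of genes called there was 11 with DESeq2, 10 without the filter on low counts, 0 with limma on the log2 values (977 at an unadjusted p under 0.05), 2 to 15 when single samples were left out, and 8 without both BM samples numbered 1, an alternative chosen after seeing the data, against 4. For tissue, 1246 genes were called with a replicate block, 1336 among the DNGR-1 KO samples only, 1609 without both BM samples numbered 1 and 1848 to 3187 when single samples were left out, against 2631; fewer samples entered most of these fits, and otherwise the cause was not tested. Ltb was called under all 19 alternatives, Mgl2 under 18 and Clec4a4 under 17. Clec4a4 missed the threshold with limma on the log2 values (adjusted p = 0.055) and both missed it among the DNGR-1 KO samples only. Dtx1, called without the filter, was also called among the DNGR-1 KO samples only (adjusted p = 0.0089), but not with limma on the log2 values (adjusted p = 0.071). For Dtx1 these values rest on the DNGR-1 KO spleen samples, the only ones with more than 1 count. For genotype in spleen, 1357 genes were called (1059 higher and 298 lower in DNGR-1 KO), 763 with voom (371 and 392) and 1016 to 3054 when single samples were left out, with 1 to 3 members against 2. For the difference of the genotype effect between tissues, 1108 genes and 1 member were called, 0 genes and 0 members with voom, and 767 to 2677 genes and 0 to 2 members when single samples were left out. The median log2 fold change of all genes between tissues was -0.18, -0.35 with voom and -0.12 with the other size factors. Same-numbered WT and DNGR-1 KO BM samples had correlations of deviations of 0.103, 0.0990 and -0.0814. With so few samples per group these values cannot decide whether the numbers pair samples, and the main fits did not use the numbers. With the replicate block 0 members were called in BM and 3 between tissues, Mgl2 at an adjusted p of 0.045 and Clec4a4 of 0.050. The floor of 3 counts limits Mgl2, Esam, Clec4a4 and Dtx1, and the single WT spleen sample limits the comparison of genotype in spleen.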
